A study of Drosophila melanogaster with 15 samples.

Results

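The Drosophila complexes that methylate histone H3 on lysine 4 (the COMPASS family) were followed through 9 of their subunit genes in the nuclear RNA of aging photoreceptors. The genes were Cfp1, Set1, ash2, wds, Rbbp5, Hcf, trx, trr and Utx, taken by their FlyBase symbols and matched to gene identifiers of the count table, and all 9 of them were found among its 17558 genes. All 9 passed the filter on low counts (CPM, gene counts scaled to a common library total, over 1 in at least 3 of the 14 libraries), which left 10678 tested genes. The nuclei came from pooled male flies at 5 ages, days 10, 20, 25, 30 and 40 after eclosion. Every group had the same genotype, a w mutant background with a GFP-Msp300KASH transgene (a nuclear membrane tag under UAS control, marked with w+) driven by rh1-GAL4 in outer photoreceptors, so age was the only difference in the labels. Tagged nuclei were pulled from head homogenates with an antibody to GFP. The driver is also active in part of the antenna, so nuclei of mechanosensory neurons could be present. There were 3 libraries per age and 2 at day 30, where the study discarded replicate 3 for poor mapping. Other replicate numbers used here are those of the count columns, and their match to the sample titles is not known. Histone methylation itself was not measured in these libraries, which report RNA only.

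Methylated H3 lysine 4 marks active chromatin, with the trimethyl form at promoters and the monomethyl form at enhancers. In flies the mark is placed by separate complexes built around the enzymes Set1, trx and trr, and these share a core that includes ash2, wds and Rbbp5. Cfp1 is a CXXC zinc finger protein found in the Set1 complex, Hcf (host cell factor) joins the Set1 and trx complexes, and Utx, a demethylase of H3 lysine 27, belongs to the trr complex.

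Cfp1 rose with age and was the only one of the 9 genes called in the age test (a straight and a squared term in age, edgeR quasi-likelihood F test, adjusted p under 0.05 over all tested genes). Cfp1 RNA was at 7.54, 9.19 and 13.9 CPM in the 3 day 10 libraries, followed by 8.53, 12.3 and 10.9 CPM in those of day 20 and 13.6, 14.2 and 11.8 CPM in those of day 25. The 2 day 30 libraries had 15.8 and 14.5 CPM, and the day 40 libraries 16.7, 18.9 and 19.1 CPM. All 3 day 40 libraries lay above every library of the other ages, while day 10 replicate 3 reached the level of the day 25 libraries. The mean of the day 10 libraries was 10.2 ± 3.28 CPM (SD, n = 3) and that of day 20 was 10.6 ± 1.89 (n = 3), after which day 25 had 13.2 ± 1.24 (n = 3), day 30 had 15.2 ± 0.863 (n = 2) and day 40 had 18.2 ± 1.35 (n = 3).

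The fitted log2 change of Cfp1 from day 10 to day 40 was 0.89 in the age test (edgeR adjusted p = 0.0236, rank 526 of the 10678 genes by p). In the direct contrast, day 40 exceeded day 10 by 0.83 ± 0.22 on the log2 scale (SE), or 1.77-fold with a 95% interval of 1.28 to 2.46 (edgeR adjusted p = 0.0251). By day 20 Cfp1 had covered 4.15% of its log2 change from day 10 to day 40, by day 25 44.2% and by day 30 67.5%. The day 20 share was 29.4% without day 10 replicate 3, -21.1% without day 10 replicate 1 and 21.3% without day 20 replicate 1, so it is not set against a straight course. With 1 library left out at a time the day 25 share was 29.5% to 58.9% and the day 30 share 58.9% to 76.0%. None of the shorter steps of Cfp1 passed the test. Its log2 change against day 10 was 0.03 ± 0.23 at day 20 (SE, edgeR adjusted p = 0.984), 0.37 ± 0.22 at day 25 (adjusted p = 0.488) and 0.56 ± 0.25 at day 30 (adjusted p = 0.34), and from day 30 to day 40 it was 0.27 ± 0.25 (adjusted p = 0.832). Cfp1 was read from 67 to 340 counts per library, so the counting error alone was 5.42% to 12.2% of a value. The values are bulk levels over many nuclei, in which fewer nuclei of a type and less RNA per nucleus cannot be told apart.

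**Figure D1:**
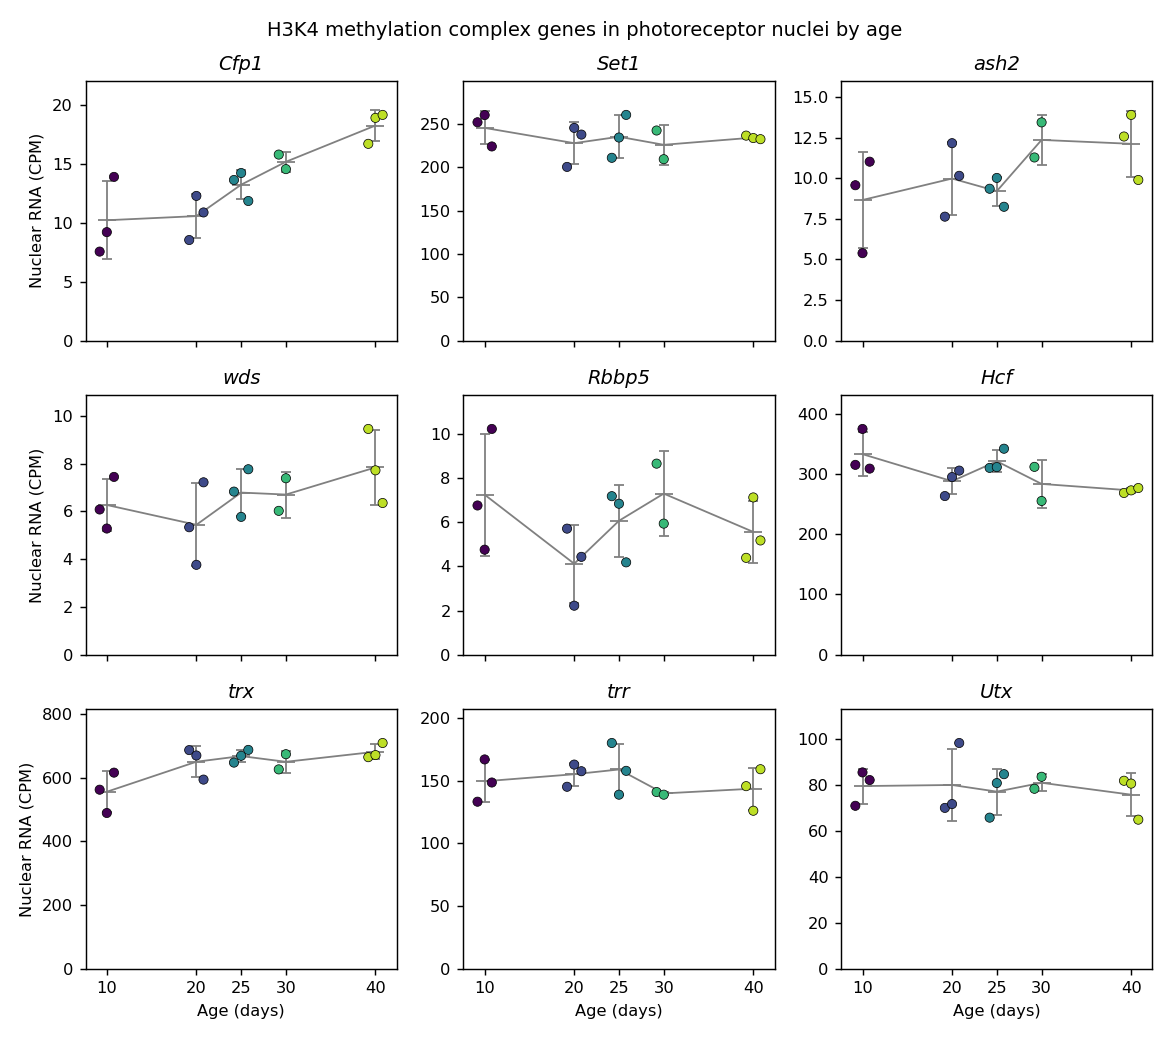
Nuclear RNA of each of the 9 genes in CPM (y axis, from 0) against age in days (x axis). Points are the 14 libraries, set slightly apart by replicate number, and grey bars give the mean ± SD of each age (n = 3, and n = 2 at day 30). Cfp1 goes from a mean of 10.2 CPM at day 10 to 18.2 CPM at day 40, while Set1 stays between 200.5 and 260.5 CPM in all 14 libraries.

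Set against the whole table, 1 called gene of 9 (11.1%) was near the share called among all tested genes, which was 8.35% in the age test (892 of 10678 genes). Calls toward higher levels made up 4.92% of all tested genes and calls toward lower levels 3.44%, and the 9 genes had 1 and 0 of them. With library size in place of TMM scaling, 708 genes were called higher and 182 lower, against 525 and 367, the median log2 change of all genes moved up by 0.12 and the 9 genes had 2 calls, Cfp1 and trx (log2 change 0.39, edgeR adjusted p = 0.0447). In the day 40 against day 10 contrast 10.4% of tested genes were called, and again Cfp1 alone of the 9. None of the 9 was called in the contrasts of day 20, 25 or 30 with day 10 or of day 40 with day 30, where edgeR called 0.00937%, 0.974%, 0.871% and 1.11% of all genes. DESeq2 and limma-voom also called none of the 9 in these 4 contrasts. At an unadjusted p under 0.05 there was 1 of the 9 at day 20 (Rbbp5), 1 at day 25 (trx), 1 at day 30 (Cfp1) and 0 from day 30 to day 40, where 8.1%, 14.3%, 13.7% and 9.96% of all tested genes were. For day 40 against day 10 it was 3 of the 9 (Cfp1, trx and Hcf), and 25.0% of all tested genes. The median log2 change over the 9 genes was -0.06 with 4 of 9 above 0, and the median of all tested genes was 0.01.

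The call of Cfp1 rested on few libraries. It was lost when day 10 replicate 1 (age test adjusted p = 0.0589), day 10 replicate 2 (0.0648), day 40 replicate 2 (0.0679) or day 40 replicate 3 (0.0728) was left out of the edgeR fit, with log2 changes of 0.75, 0.84, 0.89 and 0.87. Calls over all genes also dropped in these fits, from 892 to 532, 472, 604 and 629 in the same order. They were 774 to 1133 when another library was left out. Leaving out any of the other 10 libraries in turn kept the call, with the smallest adjusted p, 0.00314, when day 10 replicate 3 was out.

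The libraries also differed in the ratio of read pairs on no annotated feature to gene counts. That ratio was higher at day 10 than at day 40, opposite to Cfp1. It was 103, 100.4 and 60.7 per 100 gene counts in day 10 replicates 1, 2 and 3. At day 40 it was 56.4, 52.5 and 42.4, so the groups did not overlap. At day 30, where the ratio was highest (112 in both libraries), Cfp1 stood at 15.8 and 14.5 CPM, above all 3 day 10 libraries. With the log2 of this ratio as a covariate the log2 change of Cfp1 was 0.82 in the age test (edgeR adjusted p = 0.115) and 0.42 for day 40 against day 10 (adjusted p = 0.662), and neither was called. Without day 10 replicates 1 and 2, an alternative chosen after the data were seen, the lone day 10 library with the lower ratio gave a log2 change of 0.40 from day 10 to day 40 (adjusted p = 0.509) and 0.58 in the age test (adjusted p = 0.0865), assuming that this library varies like those of the other ages. With day 10 left out altogether, also chosen afterwards, the fitted log2 change of Cfp1 from day 20 to day 40 was 0.77 (adjusted p = 0.0841).

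**Figure D2:**
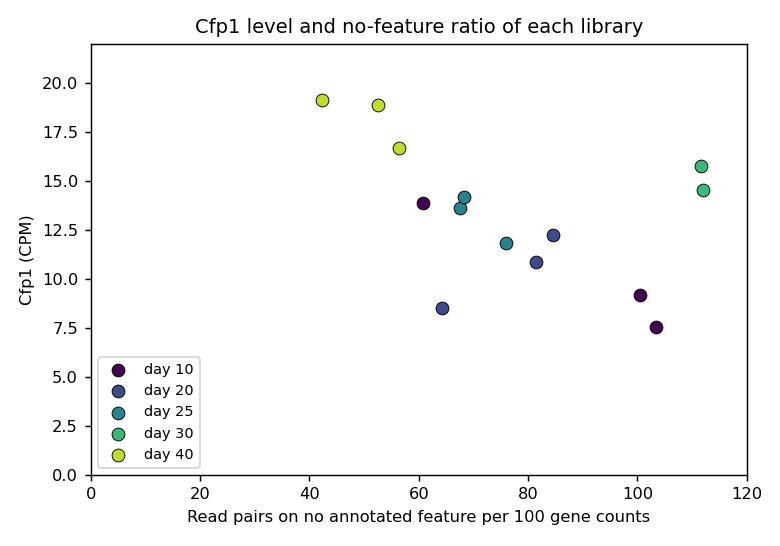
Cfp1 in CPM (y axis) against read pairs on no annotated feature per 100 gene counts (x axis), 1 point for each of the 14 libraries, coloured by age. The day 40 libraries lie at 42.4 to 56.4 pairs and the day 10 libraries at 60.7 to 103, while the 2 day 30 libraries combine the highest ratio, 112, with Cfp1 at 14.5 and 15.8 CPM.

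Set1, the catalytic partner of Cfp1, was not called in any contrast. Set1 was at 252, 260.3 and 224 CPM in the day 10 libraries and at 237, 234 and 232 CPM at day 40, with the 8 libraries between these ages at 200.5 to 260.5 CPM. The 2 groups overlapped, and the log2 change from day 10 to day 40 was -0.07 ± 0.12 (SE, edgeR adjusted p = 0.788), with a 95% interval of 0.798-fold to 1.14-fold. The small sign of that change depended on scaling, being 0.05 with library size alone.

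The other methyltransferases were trx, the founding trithorax group gene that keeps homeotic genes active, and trr, which methylates enhancers. The trx values were 563, 489 and 616 CPM at day 10 and 665, 671 and 709 CPM at day 40, so the groups did not overlap, and the libraries of days 20 to 30 spanned 594 to 688 CPM. The log2 change of trx was 0.29 ± 0.12 (SE), 1.23-fold with a 95% interval of 1.03 to 1.46, and it did not pass the test over all genes (edgeR adjusted p = 0.121, unadjusted p = 0.0225). For trr, the day 10 libraries had 133, 167 and 148 CPM and the day 40 libraries 146, 126 and 159 CPM, which overlap. The trr log2 change was -0.06 ± 0.13 (SE, edgeR adjusted p = 0.833, 95% interval 0.792-fold to 1.16-fold).

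The shared core subunits ash2, wds and Rbbp5 were not called. The ash2 values were 9.57, 5.39 and 11.0 CPM at day 10 and 12.6, 13.9 and 9.89 CPM at day 40, with day 40 replicate 3 inside the day 10 range. Its log2 change was 0.47 ± 0.26 (SE, edgeR adjusted p = 0.279), an interval from 0.947-fold to 2.04-fold. The WDR5 homologue wds had 6.08, 5.28 and 7.45 CPM at day 10 and 9.45, 7.72 and 6.35 CPM at day 40, again overlapping, with a log2 change of 0.31 ± 0.28 (SE, adjusted p = 0.54). Rbbp5, which helps to stimulate the methyltransferases, had 6.76, 4.75 and 10.2 CPM at day 10 and 4.39, 7.12 and 5.17 CPM at day 40, overlapping, with a log2 change of -0.39 ± 0.37 (SE, adjusted p = 0.558). Rbbp5 was the shallowest of the 9, with 23 to 145 counts per library, and its day 20 libraries had 5.71, 2.22 and 4.43 CPM. The 95% intervals of wds (0.821-fold to 1.87-fold) and Rbbp5 (0.446-fold to 1.3-fold) were wide, like that of ash2. A rise of ash2 or wds or a fall of Rbbp5 as large as the 1.77-fold rise of Cfp1 is not excluded. A rise of Rbbp5 of that size lies outside its interval.

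Hcf and Utx, which are not core subunits, were not called. Hcf had 315, 375 and 309 CPM at day 10 and 268, 273 and 277 CPM at day 40, so that every day 40 library was below every day 10 library. Its log2 change was -0.29 ± 0.12 (SE), 0.819-fold with an interval of 0.687 to 0.977, and it did not pass the test over all genes (edgeR adjusted p = 0.141, unadjusted p = 0.0286). The annotated exons of Hcf share 227 and 147 bases with 2 transposable elements on the same strand, so part of its reads may be ambiguous. Utx had 71.0, 85.6 and 82.3 CPM at day 10 and 82.0, 80.7 and 65.0 CPM at day 40, overlapping, with a log2 change of -0.07 ± 0.16 (SE, adjusted p = 0.827).

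Every day 40 library lay above every day 10 library for 2 of the 9 genes, Cfp1 and trx, and below for 1, Hcf. Among all tested genes 15.6% were separated upwards and 12.9% downwards.

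**Figure D3:**
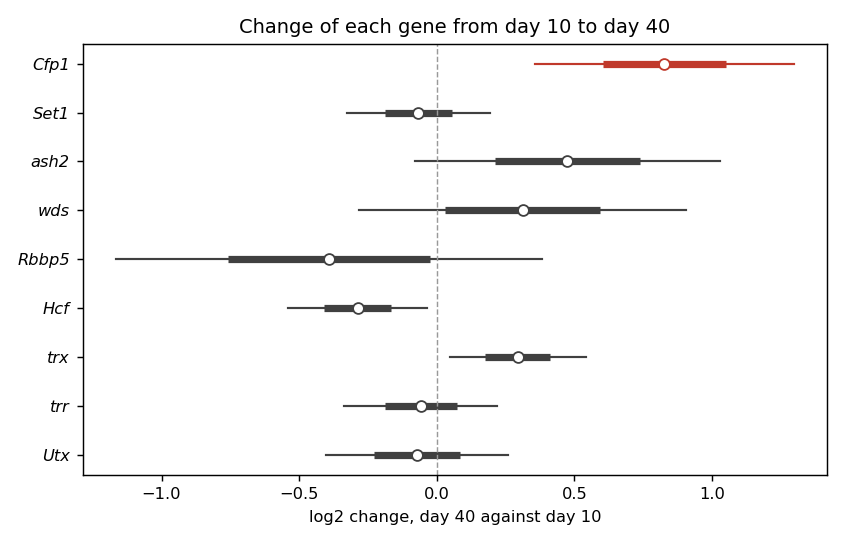
Log2 change from day 10 to day 40 (x axis) for each of the 9 genes, from the edgeR fit over all ages (n = 3 libraries at each of these ages). Circles are estimates, thick bars ± 1 SE and thin lines 95% intervals. Cfp1, in red, passed the adjusted threshold with 0.83, and the intervals of trx and Hcf miss 0 without an adjusted call.

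Because both genes of a pair are read in the same library, the ratio of Cfp1 to another subunit does not depend on how libraries are scaled. Cfp1 was put in the numerator with its rise already known, so these ratios describe that rise against each subunit and are no separate evidence of it. The slopes were fitted without the no-feature ratio as a covariate, so their dependence on it was not tested. The log2 ratio of Cfp1 to Set1 was -5.05, -4.82 and -4.01 in the day 10 libraries and -3.82, -3.63 and -3.60 at day 40, without overlap. Its slope over the 14 libraries was 0.33 ± 0.07 log2 units per 10 days (SE, two-sided permutation test with 100000 resamples, p = 0.00048, adjusted p = 0.00139 over the 8 ratios). Cfp1 likewise rose against Hcf (slope 0.40 ± 0.07, permutation p = 7e-05, adjusted p = 0.00056), trr (0.34 ± 0.07, permutation p = 0.00052, adjusted p = 0.00139), Utx (0.34 ± 0.07, permutation p = 0.00082, adjusted p = 0.00164) and trx (0.22 ± 0.07, permutation p = 0.00684, adjusted p = 0.0109).

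Against the core subunits the picture was weaker. The slope of Cfp1 to Rbbp5 was 0.34 ± 0.14 (permutation p = 0.0286, adjusted p = 0.0381), and it was not called without day 10 replicate 1 or 3, day 20 replicate 1 or day 40 replicate 1 or 3 (adjusted p of 0.0518 to 0.121 in these fits). For ash2 the slope was 0.13 ± 0.08 (permutation p = 0.135, adjusted p = 0.135) and for wds 0.19 ± 0.10 (permutation p = 0.0773, adjusted p = 0.0884), so a rise of Cfp1 relative to these 2 genes was not established. The ash2 ratio was called without day 10 replicate 2 (slope 0.20, adjusted p = 0.0191), and the wds ratio without day 20 replicate 2 (0.21, adjusted p = 0.0214) or day 40 replicate 1 (0.25, adjusted p = 0.043). Over days 10 to 30 none of the 8 slopes was called (adjusted p of 0.0844 to 0.556), and over days 20 to 40 those to Set1, Hcf, trx, trr and Utx were (adjusted p of 0.00072 to 0.00466).

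**Figure D4:**
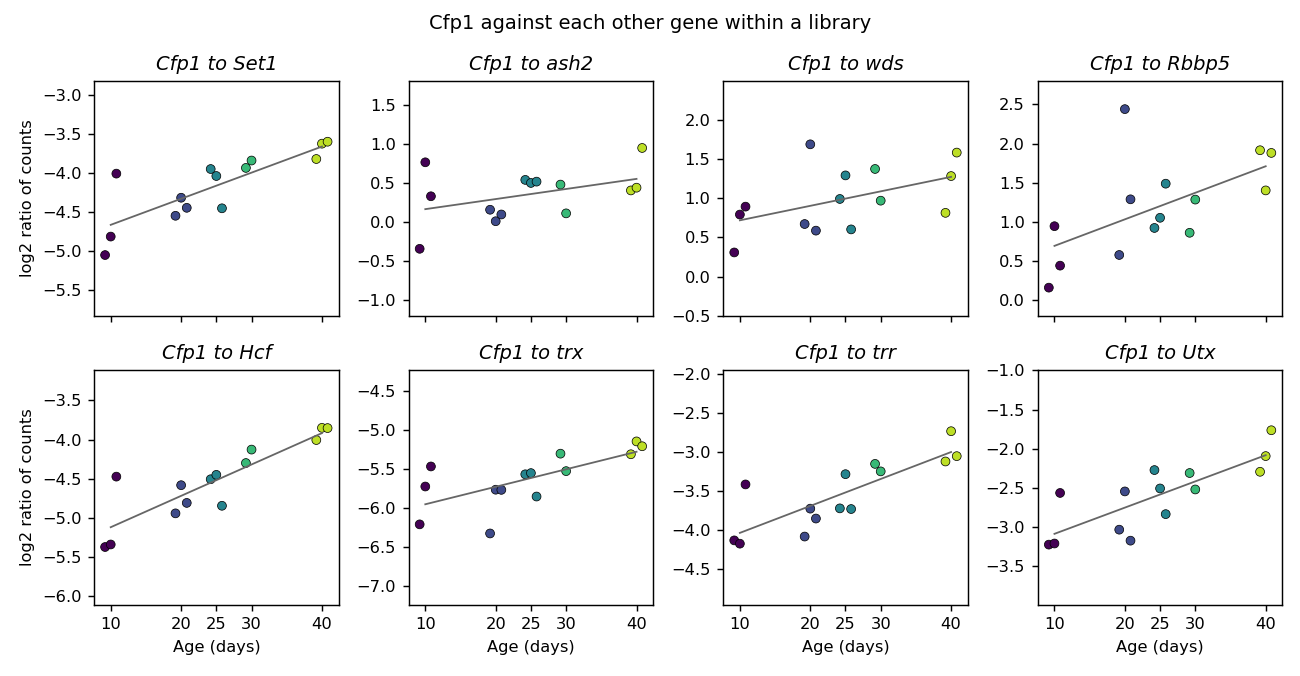
Log2 ratio of Cfp1 counts to those of each other gene (y axis, the same span of 3 log2 units in each panel) against age in days (x axis), 1 point per library with the least-squares line. The ratio to Set1 goes from a mean of -4.63 at day 10 to -3.69 at day 40, and the ratios to ash2 and wds overlap between these ages.

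Per length of exon, the 9 genes fell into levels that set the large enzymes and Hcf apart from the small subunits. Expressed as CPM per kilobase of annotated exon, the medians over the 14 libraries were 47.5 for trx, 42.4 for Set1 and 37.5 for Hcf, then 18.3 for Utx and 17.7 for trr, and then 5.72 for Cfp1, 4.51 for ash2, 3.34 for wds and 3.14 for Rbbp5. Neighbours in this order often changed places: trx was above Set1 in 11 of 14 libraries, Utx above trr in 9, Cfp1 above ash2 in 11, ash2 above wds in 12 and wds above Rbbp5 in 8. Set1 was above Hcf, Hcf above Utx and trr above Cfp1 in all 14 libraries. Among the tested genes with an annotated length, 91.3% had a lower length-scaled median than trx and 30.6% a lower one than Rbbp5. The length-scaled level of Set1 was 7.07 times that of Cfp1 in the median library, between 5.26 and 14.5 times. Levels of this kind assume that reads are spread evenly over the exons, which was not tested.

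The genes with fewer counts varied more between libraries. The coefficient of variation over the 14 libraries was 7.76% for Set1, 9.22% for trx, 9.76% for trr, 10.8% for Hcf and 11.5% for Utx, all with at least 508 counts in every library, against 21.1% for wds, 22.5% for ash2, 26.9% for Cfp1 and 34.1% for Rbbp5. Cfp1 and ash2 are carried by similar numbers of counts, so their spreads can be set side by side: their highest and lowest libraries differed 2.53-fold and 2.58-fold, and both had their lowest library at day 10 and their highest at day 40. The age means of Cfp1 were each higher than that of the age before, and those of ash2 were not.

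**Figure D5:**
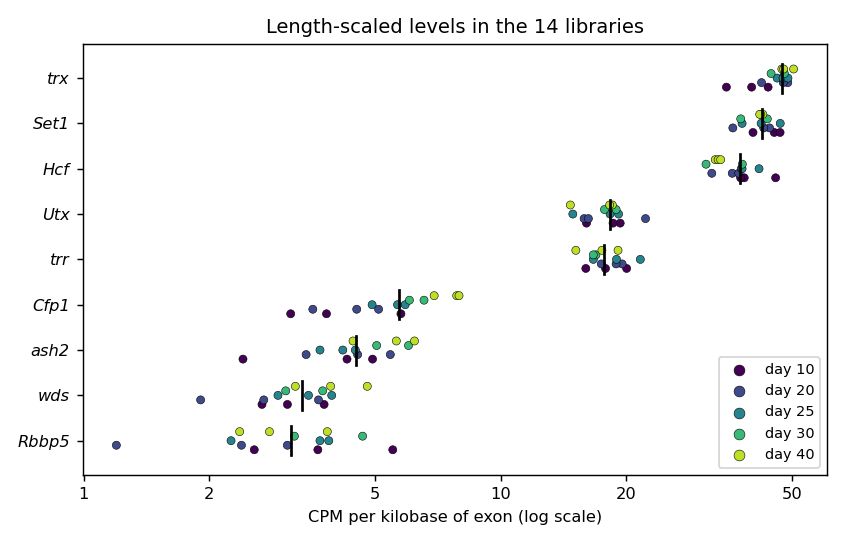
CPM per kilobase of exon (x axis, log scale) of the 9 genes in the 14 libraries, coloured by age, with genes ordered by their median (black bar). The medians run from 47.5 for trx to 3.14 for Rbbp5, and only Cfp1 shows the day 40 libraries as the highest 3.

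The 9 genes lie on 5 chromosomes or arms (coordinates of BDGP6). Cfp1 (FBgn0030121) is at X:9270434-9272960 on the minus strand, in the same chromosome as wds (X:2585980-2588217) and trr (X:1881313-1889950). Set1 is at 3L:25107594-25115180, Rbbp5 at 3L:20345736-20347942, ash2 at 3R:24650125-24653376, trx at 3R:14263358-14286903, Utx at 2L:10272325-10278811 and Hcf at 4:359938-375554. Cfp1 has no annotated overlapping gene. Exons of Set1, ash2, Rbbp5, trx and trr overlap genes on the opposite strand by at most 570 bases, and counting was strand-specific.

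The genes whose course was most like that of Cfp1 were Drip, an aquaporin water channel gene (Pearson's r = 0.891 of log2 CPM over the 14 libraries), CG10527 (0.887), Myd88, the adaptor of Toll signalling (0.855), and 2 genes known here by identifier only, FBgn0261548 (0.888) and FBgn0003328 (0.859). They were the 5 highest of 5779 tested genes with a mean of at least 10 CPM, and the correlation is a description, since the libraries share the age course and their depth. Of the other COMPASS genes with that level, ash2 had r = 0.643 with Cfp1, trx 0.567, Utx -0.04, trr -0.13, Set1 -0.14 and Hcf -0.42.

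The wider pathway was read from lists of related genes. None of 6 tested further COMPASS subunits was called in the age test: Wdr82 of the Set1 complex, Mnn1 (menin) of the trx complex, Lpt, Ptip and Ncoa6 of the trr complex, and the core gene Dpy-30L1. Their log2 changes ran from -0.39 for Wdr82 to 1.22 for Dpy-30L1, which was near the floor at 0.778 ± 0.591 CPM at day 10 and 2.11 ± 1.55 CPM at day 40 (SD, n = 3). None of the 3 H3 lysine 4 demethylase genes was called either, Kdm5 (log2 change 0.15), CoRest (0.21) and Su(var)3-3 (0.05), nor any of 9 other lysine methyltransferases and 5 other lysine demethylases.

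Across the 8 related lists, 6 of 78 tested genes were called (7.69%, against 8.35% of all genes), 3 higher and 3 lower. Among 7 genes of H2B ubiquitination, which precedes H3 lysine 4 methylation in yeast, and of the Paf1 complex, Ubc6, the ubiquitin-conjugating enzyme, fell with age from 121 ± 7.03 to 92.8 ± 12.3 CPM (SD, n = 3, log2 change -0.41, edgeR adjusted p = 0.0377), and its direct contrast of day 40 with day 10 was not called (adjusted p = 0.084). Of 19 Polycomb genes, whose complexes oppose trithorax proteins, 2 fell and 0 rose. They were pho, the DNA-binding Polycomb protein, from 199.5 ± 12.3 to 105 ± 3.71 CPM (SD, n = 3, log2 change -0.91, edgeR adjusted p = 0.000469), and esc, a subunit of the H3 lysine 27 methyltransferase, from 152 ± 45.2 to 89.0 ± 17.5 CPM (log2 change -0.84, edgeR adjusted p = 0.0305). Of 15 other trithorax group genes Bap170, of the PBAP remodelling complex, rose from 37.6 ± 5.33 to 61.3 ± 16.4 CPM (log2 change 0.67, edgeR adjusted p = 0.0405). Of 14 subunits of the NSL and ATAC acetyltransferase complexes, some of which use wds, 2 rose: MBD-R2 (log2 change 0.52, edgeR adjusted p = 0.0181) and Rcd5 (0.72, adjusted p = 0.037). In the same list Ada2a, an ATAC subunit, was not called in the age test (adjusted p = 0.108) but was lower at day 40 in the direct contrast, at 30.4 ± 3.94 and 18.5 ± 3.4 CPM (SD, n = 3, log2 change -0.72, edgeR adjusted p = 0.0398).

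RNA of photoreceptor markers was abundant at every age, and markers of other cells moved in part with age. The 14 libraries held 6213255 to 19819118 gene counts, and the 8 photoreceptor markers, which include the rhodopsin gene ninaE, summed to 73920 to 111200 CPM at day 10 and 91820 to 128800 CPM at day 40, with 0 of 8 called. At an unadjusted p under 0.05 in the age test there were 2 of 8, inaD and ninaC, both lower at day 40, and 2572 of the 10678 tested genes. By the same measure there were 2 of 4 inner photoreceptor markers, Rh4 and Rh6, both higher at day 40. There were 3 of 6 mechanosensory, 2 of 4 muscle, 1 of 5 glial, 3 of 4 fat body, 0 of 4 hemocyte and 2 of 3 pigment cell markers. Of 6 mechanosensory markers 1, Rfx, fell, and their sum went from between 142 and 151 CPM at day 10 to between 94.9 and 109 CPM at day 40. Of 4 muscle markers 1, Mlc2, rose, and the sum went from between 198 and 445 CPM to between 490.4 and 660.3 CPM. Of 5 glial markers nrv2 fell, with sums of 286 to 380.2 CPM at day 10 and 245 to 283 CPM at day 40. The mechanosensory, muscle and glial sums, like Cfp1, did not overlap between these ages. Each sum was mostly 1 gene, at day 10 Rfx (109 CPM), Mhc (292 CPM) and nrv2 (193 CPM) in turn, and Mhc was not called (edgeR adjusted p = 0.159). Log2 changes above 0 were found for 1 of 6 mechanosensory, 4 of 4 muscle and 2 of 5 glial markers. Of 4 fat body markers Yp1 was called higher, at 0.073 to 0.634 CPM at day 10 and an uneven 0.944 to 57.3 CPM at day 40. The fat body sum was 77.1 to 154 CPM at day 10 and 119 to 357 CPM at day 40. Most of that sum was Yp3, which was not called (edgeR adjusted p = 0.137). None of the hemocyte (0 of 4), pigment cell (0 of 3) and inner photoreceptor (0 of 4) markers was called. The pigment cell sum was 778 to 1435 CPM at day 10, 699.6 to 3037 CPM at day 20 and 1490 to 3695 CPM at day 25. It was 1018 to 2159 CPM at day 30 and 810 to 1522 CPM at day 40. Most of that sum was w, at 1060 ± 336 CPM at day 10 and 1091 ± 357 CPM at day 40 (SD, n = 3), and since the transgene carries a w+ marker its level does not mark pigment cells here. The part of these cells in the Cfp1 values was not tested.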

How the data were processed

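Reads were trimmed by the authors (Trimmomatic), mapped to BDGP6 (TopHat) and assigned to genes by strand as read pairs (HTSeq). The deposited values used here are raw counts, with no normalization. HTSeq summary lines, which name no gene, held 77.6% to 87.7% of the entries of a column and were left out of library sizes and tests. The deposited filtered counts supplied only a gene set, and the deposited CPM were not used.

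Tests used edgeR 4.0.16 under R 4.3.3 (TMM scaling, quasi-likelihood F tests, Benjamini-Hochberg adjustment at 0.05 over the 10678 genes). The age test fitted linear and squared age together. Contrasts came from 1 fit with a mean per age, their SE from the F statistic and their 95% intervals from the t quantile of that fit. Printed CPM use TMM-scaled sizes, and log2 CPM a prior count of 2. Ratios used counts plus 0.5. Exon lengths and positions are those of Ensembl annotation of the same assembly. Alternatives were DESeq2 1.42.0, limma-voom (limma 3.58.1), other scalings, filters, covariates and libraries left out. The statistics were tested on simulated data.

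The members and lists were chosen with earlier results of these data known. All members are named, then the called genes of the other lists and the 5 genes most like Cfp1. Depth was 6213255 to 19819118 gene counts, where 3 counts equal 0.151 to 0.483 CPM. Such floors and counting errors cover counting only, because without molecular identifiers pairs can be copies of 1 molecule. The study calls its replicates biological and pooled the flies of a sample. The labels give no batch or date.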

Additional observations from a re-analysis of the deposited data

Results flagged for a closer look

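The discarded day 30 replicate 3 was in no comparison, and its 518520 gene counts make 3 counts equal to 5.79 CPM. In it 3 of the 9 genes stood above their highest day 10 library, here on plain library totals: ash2 at 15.4 CPM from 8 counts (exact Poisson 95% interval 6.66 to 30.4, highest day 10 library 11.2), wds at 9.64 CPM from 5 counts (3.13 to 22.5, against 7.54) and trx at 665 CPM from 345 counts (597 to 739, against 624). All 3 intervals include the day 10 value, and they cover counting error only. In the other direction the limit was a different one, the lowest of the 14 libraries used. Set1 at 193 CPM, Hcf at 247 CPM and trr at 114 CPM lay below it (208.5, 265.7 and 119 CPM). Their intervals of 157 to 235, 206 to 293 and 86.6 to 147 CPM include that lowest value. Cfp1 had 7 counts there, 13.5 CPM (5.43 to 27.8), below its highest day 10 library. The share of all genes beyond these limits in the discarded library was not computed. The numbers of genes above and below are therefore not read as a result about the 9 genes.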

How the results depend on the processing

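Of the 9 genes, 1 was called in the age test and 1 from day 10 to day 40. The age test count was 2 with library size alone and 0 with the no-feature covariate, over days 20 to 40, or without day 10 libraries 1 and 2. The day 40 against day 10 count was 0 with that covariate and without those 2 libraries. Leaving out 1 library gave 0 to 1 in both. Calls over all genes, 892 and 1112, ran from 472 to 1133 and from 542 to 1252 with 1 library left out (lowest without day 10 replicate 2), and were 436 and 197 with the covariate and 1465 and 1577 by DESeq2. The log2 change of Cfp1 was above 0 under every alternative run, at 0.58 to 1.17 in the age test and 0.40 to 1.12 from day 10 to day 40.

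Genes that were not called changed sign under some alternatives, in the age test and from day 10 to day 40 respectively. With library size alone Set1 was at 0.065 and 0.048, trr at 0.034 and 0.047 and Utx at 0.061 and 0.040. With the covariate Set1 was at 0.0047 and 0.20 and Utx at 0.0094 and 0.078. Without day 10 libraries 1 and 2 Set1 was at 0.056 and 0.072, and over days 20 to 40 Set1 was at 0.014 and Rbbp5 at 0.41 in the age test. With 1 library left out the age test values spanned -0.33 to 0.20 for Rbbp5 and -0.13 to 0.030 for Utx, and the day 40 against day 10 values -0.14 to 0.041 for trr and -0.15 to 0.030 for Utx.

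Over days 10 to 30 the slopes of the Cfp1 ratios were 0.35 to Set1, 0.32 to Rbbp5, 0.39 to Hcf, 0.17 to trx, 0.31 to trr and 0.30 to Utx, none called, and over days 20 to 40 the slope to Rbbp5 was 0.19, not called. These fits have 11 libraries. With 1 library left out the slopes spanned 0.27 to 0.39 for Rbbp5, 0.065 to 0.20 for ash2 and 0.13 to 0.25 for wds.

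With the replicate number as a block the age test called 676 genes and Cfp1 kept its call (log2 change 0.92, adjusted p = 0.0326), and no call of the 9 genes changed. The labels give no shared source for a number, and deviations of same-numbered libraries correlated at a median of -0.03 over 26 pairs (-0.16 to 0.13). Where calls were lost, the cause was not tested. Rbbp5, wds, ash2 and Cfp1 had 23 to 340 counts a library, and the part of depth in their spread was not tested.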
